A study of Mus musculus with 6 samples.

Results

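Collagen VI, the collagens that sit on the surface of other fibrils (FACIT collagens) and the multiplexins make up the matrix around cells and between fibrils. They were followed in mouse calvaria-derived cells, a culture started from the flat bones of the skull that forms osteoblasts. The 10 genes were chosen by name: the collagen VI chains Col6a1, Col6a2 and Col6a3, the FACIT collagens Col12a1, Col14a1, Col16a1 and Col22a1, the multiplexins Col15a1 and Col18a1, and the transmembrane collagen Col13a1. They are 10 of the 57180 genes in the count table, and all 10 were found by symbol. The 3 wt libraries are of cells from C57BL/6 mice. The 3 FasL KO libraries are of cells from B6Smn.C3-Faslgld/J mice homozygous for gld, a point mutation of Fasl, the gene of Fas ligand, so the labels' KO is not a deletion of the gene. Both groups were differentiated in the same osteogenic medium, and the labels give no age for the animals. The study asked which matrix components depend on Fas ligand in osteoblasts. Cells of FasL KO mice given recombinant FasL, which the design text also describes, are not analysed here. The labels do not say whether each library had its own animal or culture, so the p-values describe library-to-library spread, which may be technical.

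Collagen VI is built from 1 chain each of α1, α2 and α3, which join inside the cell into larger units and are then secreted as beaded microfilaments that surround cells. The C-terminal end of the α3 chain is released as a fragment called endotrophin. FACIT collagens do not form fibrils of their own: collagens XII and XIV lie along collagen I fibrils and reach out to neighbouring molecules, and in mice collagen XII is needed for ordered osteoblasts and normal bone. Multiplexins lie in basement membrane zones, and the C-terminal end of collagen XVIII is released as endostatin. In people, mutations of the collagen VI chain genes cause Bethlem and Ullrich muscle disease.

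The libraries were made with a 3′ end kit that reads each transcript near its poly(A) tail. They held 2011173, 3105322 and 3054280 counts in wt and 4210024, 4048258 and 5245546 in FasL KO, so the wt values rest on fewer counts. Of the 8692 genes with enough counts to test, 847 (9.74%) were higher in FasL KO and 668 (7.69%) were lower (edgeR's quasi-likelihood test, Benjamini-Hochberg adjusted p under 0.05, two-sided). With libraries scaled by their totals alone, the split was 720 higher and 975 lower, and the median of all genes moved from 0.02 to −0.14 on the log2 scale. The counts of FasL KO and wt did not overlap in 2892 tested genes (33.3%). Fasl itself was listed at 0 in all 6 libraries, and since gld is a point mutation its level could not check the labels.

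Of the 10 genes, 7 had counts and could be tested. The test called 5 higher in FasL KO (Col6a1, Col6a2, Col6a3, Col14a1 and Col18a1), against 9.74% higher among all tested genes, and 1 lower (Col12a1), against 7.69%. These 6 were also the members whose groups did not overlap, against 33.3% of all tested genes. Col16a1 was tested and not called. Col13a1, Col15a1 and Col22a1 were listed at 0 in every library. The median log2 fold change of the 7 tested members was 1.29, beside 0.02 for all tested genes. In bulk libraries, fewer cells of a type and less RNA per cell cannot be told apart.

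**Figure D1:**
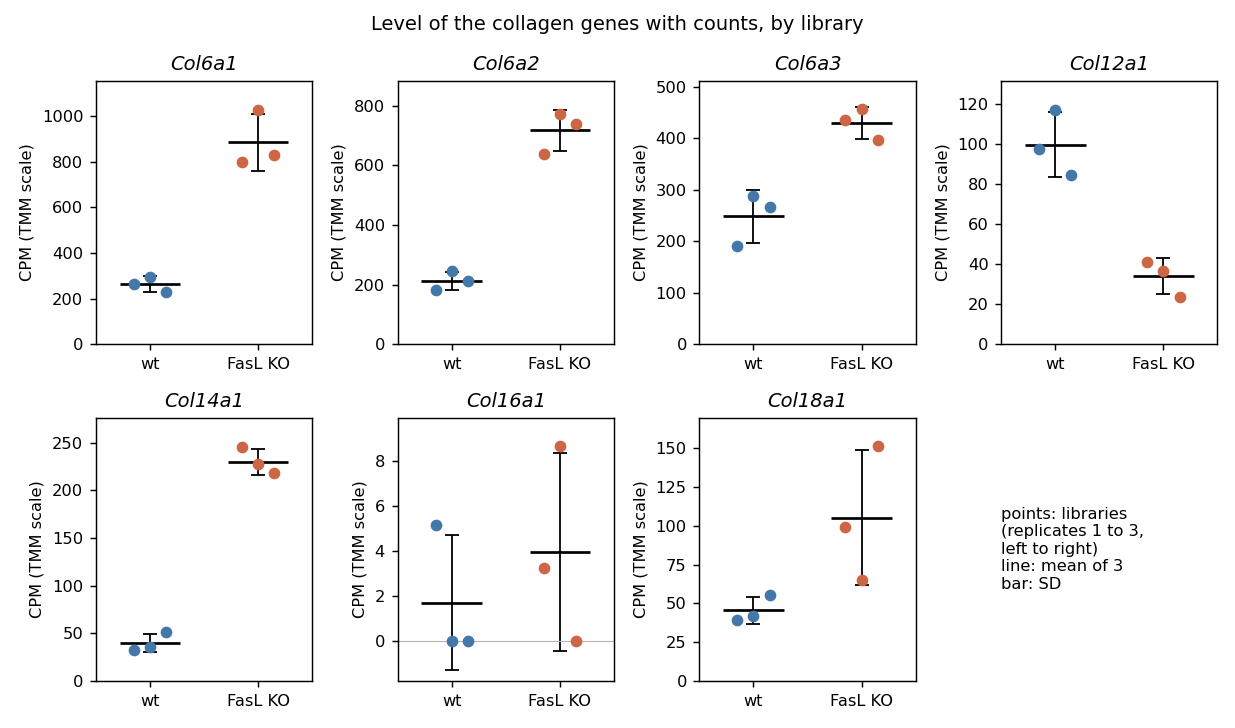
Level of each of the 7 members with counts in each library, in CPM (TMM scale) on linear axes, with a point per library and the group mean and SD (n = 3). Col6a1, Col6a2, Col6a3, Col14a1 and Col18a1 lie higher in all 3 FasL KO libraries, Col12a1 lies lower in all 3, and Col16a1 overlaps.

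Counts from a 3′ end kit depend on the annotated gene ends. In GENCODE M21, the last 300 exonic bases of the principal transcript belonged to 1 transcript alone in the 3 collagen VI genes, and were shared with other transcripts of the same gene in the other 7 members. Col13a1, Col15a1 and Col22a1 have 7, 9 and 4 annotated transcripts, and none of these has an end of its own. Col12a1, Col14a1, Col16a1 and Col18a1 do have at least 1 transcript with its own end. For Col14a1 that transcript is a coding one of 2085 bases beside a principal transcript of 5679, and for Col18a1 a coding one of 5063 beside 4791. Of all 44 collagen genes matched, 24 have a principal transcript whose last 300 bases are its own, called a single end here. A gene with a single end in this sense can have further ends: coding transcripts of Col6a2 and Col6a3 end at 2 and 4 positions. Of the 24 genes, 17 had at least 30 counts and 0 were at 0. In the other 20 the end of the principal transcript is shared, and 7 of them had at least 30 counts and 8 were at 0. The median count summed over the 6 libraries was 2314 with a single end and 6.5 with a shared one. A gene listed at 0 is therefore not shown to be without transcripts. Counts of Col6a2, Col6a3, Col12a1, Col14a1, Col16a1 and Col18a1 may not stand for every isoform. A count of 0 allows up to 0.351 CPM in the wt group and 0.237 CPM in the FasL KO group (3 counts over the group, counting error only).

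**Figure D2:**
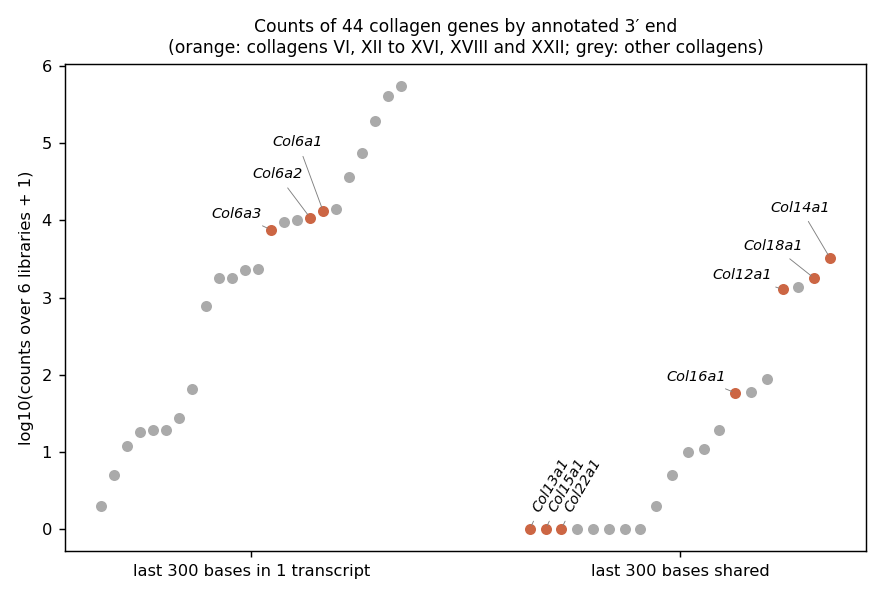
Counts summed over the 6 libraries for each of the 44 collagen genes, as log10 of the count plus 1. Genes are split by whether the last 300 exonic bases of the principal transcript belong to that transcript alone. Genes where they do have a median of 2314 counts and the others 6.5, and the 3 members at 0 are among the others.

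Col6a1 and Col6a2 lie 85.2 kb apart on chromosome 10 and rose by the same fitted amount, while Col6a3 lies on chromosome 1 and rose less. The RefSeq promoters of the 3 chain genes and of Col18a1, which is on chromosome 10 too, are shown because these genes were higher together. Each holds the 250 bases before a RefSeq transcript start, 5′ to 3′ on the minus strand of GRCm38.p6. RefSeq starts can lie inside the GENCODE gene given with each member below, and the Col6a1 window, the downstream Col6a2 window and both Col18a1 windows lie in part or whole inside it. Col6a1 is chr10:76726045-76726294, Col6a2 has an upstream start at chr10:76623631-76623880 and a downstream one at chr10:76623405-76623654, Col6a3 is chr1:90843972-90844221, and Col18a1 has an upstream start at chr10:77166531-77166780 and a downstream one at chr10:77113706-77113955. Capitals mark any of 5 motifs on either strand: TATAAA, the GC box GGGCGG, the pyrimidine run CCCTCCC, the AP-1 site TGANTCA and the RUNX core TGTGGT.
Col6a1: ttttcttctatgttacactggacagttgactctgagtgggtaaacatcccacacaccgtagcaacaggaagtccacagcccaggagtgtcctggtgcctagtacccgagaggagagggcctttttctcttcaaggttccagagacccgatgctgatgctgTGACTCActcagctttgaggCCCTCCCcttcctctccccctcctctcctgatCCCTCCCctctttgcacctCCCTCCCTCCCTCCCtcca
Col6a2 upstream start: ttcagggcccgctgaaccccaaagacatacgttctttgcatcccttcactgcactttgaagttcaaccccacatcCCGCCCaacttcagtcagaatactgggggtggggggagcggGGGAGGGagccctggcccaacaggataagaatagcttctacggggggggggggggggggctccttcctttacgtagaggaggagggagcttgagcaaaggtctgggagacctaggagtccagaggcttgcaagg
Col6a2 downstream start: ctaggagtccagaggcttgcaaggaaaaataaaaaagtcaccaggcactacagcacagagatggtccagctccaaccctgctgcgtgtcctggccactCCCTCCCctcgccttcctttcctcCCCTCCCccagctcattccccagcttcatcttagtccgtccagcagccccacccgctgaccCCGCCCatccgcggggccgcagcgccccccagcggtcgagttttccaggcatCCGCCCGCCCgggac
Col6a3: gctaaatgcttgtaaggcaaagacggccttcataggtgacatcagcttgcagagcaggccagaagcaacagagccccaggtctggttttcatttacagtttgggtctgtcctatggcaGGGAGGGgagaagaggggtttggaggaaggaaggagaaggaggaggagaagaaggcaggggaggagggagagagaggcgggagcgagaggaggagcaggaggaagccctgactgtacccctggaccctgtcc
Col18a1 upstream start: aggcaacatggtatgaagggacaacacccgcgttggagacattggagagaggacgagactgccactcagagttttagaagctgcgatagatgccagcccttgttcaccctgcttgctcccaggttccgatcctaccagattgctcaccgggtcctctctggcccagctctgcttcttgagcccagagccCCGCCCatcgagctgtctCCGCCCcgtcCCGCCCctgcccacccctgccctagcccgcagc
Col18a1 downstream start: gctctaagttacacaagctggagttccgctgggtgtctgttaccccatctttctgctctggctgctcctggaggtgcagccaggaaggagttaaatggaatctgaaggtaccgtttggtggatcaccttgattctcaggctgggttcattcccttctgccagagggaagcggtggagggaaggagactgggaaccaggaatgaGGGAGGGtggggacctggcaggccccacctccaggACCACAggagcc

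None of the windows of the 3 collagen VI genes holds TATAAA, which 12.4% of 32851 promoter windows of this length hold. The Col6a1 window holds 5 copies of CCCTCCC, 3 of them overlapping within 19 bases of the start, and 1 AP-1 site 90 to 84 bases before the start. The upstream Col6a2 window holds 1 copy each of CCCTCCC and GGGCGG, and the downstream one holds 2 of CCCTCCC and 3 of GGGCGG. The Col6a3 window holds 1 copy of CCCTCCC. The upstream Col18a1 window holds 3 copies of GGGCGG, and the downstream one holds 1 CCCTCCC and 1 RUNX core. Among all windows, 19.7% hold CCCTCCC, 32.7% GGGCGG, 6.75% TGANTCA and 14.0% TGTGGT. GC content was 56.0% in the Col6a1 window, 59.2% and 64.4% in the upstream and downstream Col6a2 windows and 57.2% in Col6a3, beside a median of 52.4%. The motifs were chosen after the sequences had been seen, and a match is a description of the letters only. RefSeq promoters were found for 7 of the 10 members in 9 windows, and Col12a1, Col14a1 and Col22a1 had none in the table used. Windows of members not called higher held such letters too. The Col13a1 window (68.8% GC) held 2 copies of CCCTCCC and 1 TATAAA, and the Col16a1 window (75.6% GC) held 1 GGGCGG. The Col15a1 window (53.6% GC) held none of the 5 motifs.

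Col6a1 (ENSMUSG00000001119), on GRCm38 chromosome 10 from 76708792 to 76726168 on the minus strand, encodes the α1 chain. The wt libraries held 265.0, 296.2 and 227.2 CPM, and the FasL KO libraries held 797.5, 1027.6 and 829.1 CPM. Every FasL KO library was higher than every wt library. The mean was 262.8 ± 34.6 CPM (SD, n = 3) in wt and 884.7 ± 124.7 (SD, n = 3) in FasL KO, a log2 fold change of 1.75 ± 0.14 (SE; 3.37-fold; adjusted p = 4.88e-07, edgeR's quasi-likelihood test with Benjamini-Hochberg adjustment).

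Col6a2 (ENSMUSG00000020241), its neighbour on chromosome 10 from 76595762 to 76623630 on the same strand, encodes the α2 chain. Its level was 181.9, 244.1 and 210.6 CPM in the wt libraries and 637.9, 773.1 and 738.0 CPM in the FasL KO libraries. Again the groups did not overlap, and the lowest FasL KO library was well above the highest wt library. The log2 fold change was 1.75 ± 0.14 (SE; 3.37-fold; adjusted p = 4.23e-07 by edgeR), and the group means were 212.2 ± 31.1 and 716.3 ± 70.2 CPM (SD, n = 3 each).

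Col6a3 (ENSMUSG00000048126), on chromosome 1 from 90765923 to 90843971 on the minus strand, encodes the α3 chain that carries endotrophin. Levels were 190.8, 287.7 and 265.6 CPM for wt against 434.8, 456.7 and 397.0 CPM for FasL KO. All FasL KO libraries were higher, by a smaller margin than for the other chains. The log2 fold change was 0.79 ± 0.15 (SE; 1.73-fold; adjusted p = 0.00176 by edgeR), and the means were 248.0 ± 50.8 and 429.5 ± 30.2 CPM (SD, n = 3 each). Col6a3 lies 70.9 Mb from Fasl on the same chromosome.

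Ratios of chains inside a library need no scaling between libraries. The log2 ratio of Col6a2 to Col6a1 counts was −0.54, −0.28 and −0.11 in wt and −0.32, −0.41 and −0.17 in FasL KO, and the groups overlapped. Their means differed by 0.01 (−0.31 ± 0.22 against −0.30 ± 0.12; SD, n = 3 each; p = 1 by a two-sided exact permutation test). The log2 ratio of Col6a3 to the mean of the other chains was −0.20, 0.10 and 0.28 in wt and −0.71, −0.96 and −0.98 in FasL KO. Every FasL KO library held relatively less Col6a3, by 0.94 in the mean (0.06 ± 0.24 against −0.89 ± 0.15; SD, n = 3 each). The exact permutation p of this ratio was 0.1, the smallest p that 3 against 3 libraries allow, and 0.15 adjusted over 3 ratios, so that it did not pass 0.05. Because 3′ tags depend on annotated ends, a ratio between genes is not a ratio of molecules, and only its change between groups is read here.

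As a share of the counts of the 3 chains, Col6a3 made up 29.9%, 34.7% and 37.8% in wt and 23.2%, 20.2% and 20.2% in FasL KO. Each FasL KO library was below each wt library for this chain. The Col6a1 share was 36.5% ± 4.68 in wt and 43.5% ± 1.8 in FasL KO (SD, n = 3 each), and the groups came close, with wt 1 at 41.6% and FasL KO 3 at 42.2%. The Col6a2 share was 29.3% ± 0.726 in wt and 35.3% ± 1.96 in FasL KO, and these shares were not tested. Of a whole library, the 3 chains together made up 0.0675%, 0.0843% and 0.0750% in wt and 0.178%, 0.211% and 0.182% in FasL KO.

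**Figure D3:**
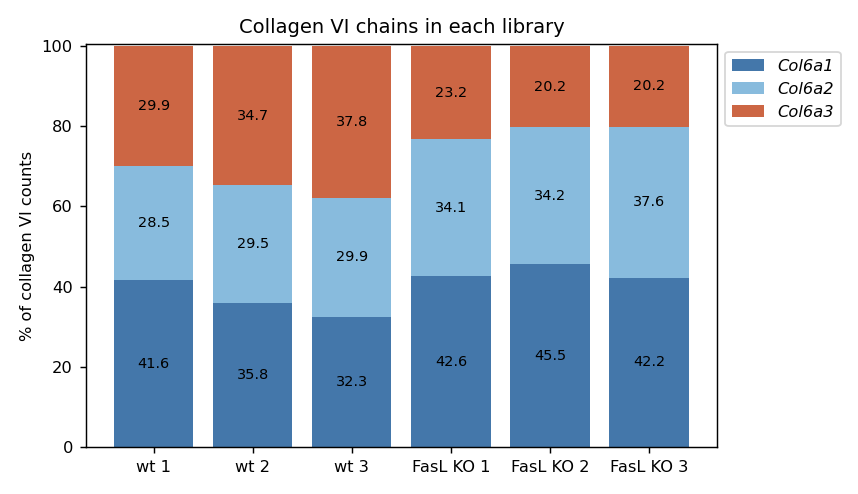
Share of the Col6a1, Col6a2 and Col6a3 counts taken by each chain in each library, in percent, for 3 wt and 3 FasL KO libraries. Col6a3 lies between 29.9% and 37.8% in wt and between 20.2% and 23.2% in FasL KO.

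Further collagen VI chain genes had few counts. Col6a4 had 0 counts in wt and 18 in FasL KO, Col6a5 had 3 and 23, and Col6a6 had 5 and 13, and these could not be tested. All wt counts of Col6a5 came from wt 3, at 0.921 CPM, above FasL KO 3 at 0.205 CPM, so its groups overlapped. The pooled ratio for Col6a5 was 5.17 (95% exact counting interval 1.56 to 26.9, which covers counting error and not the spread between libraries). All 3 encode α3-like chains.

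Col14a1 (ENSMUSG00000022371, chromosome 15, 55307750 to 55520803, plus strand) encodes collagen XIV, a FACIT collagen of fibril surfaces. Its wt levels were 32.9, 36.0 and 51.0 CPM, and its FasL KO levels were 245.0, 227.3 and 218.2 CPM. All FasL KO libraries lay several times above all wt libraries, and the FasL KO libraries lay close together. The log2 fold change was 2.51 ± 0.19 (SE; 5.71-fold; adjusted p = 2.89e-07 by edgeR), from 40.0 ± 9.66 to 230.2 ± 13.6 CPM (SD, n = 3 each).

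Col12a1 (ENSMUSG00000032332, chromosome 9, 79598991 to 79718831, minus strand) encodes collagen XII, the other FACIT collagen along collagen I fibrils. The wt libraries stood at 97.7, 117.0 and 84.4 CPM, the FasL KO libraries at 41.2, 36.7 and 23.8 CPM. The direction was opposite to Col14a1, with every FasL KO library below every wt library. The log2 fold change was −1.56 ± 0.24 (SE; adjusted p = 0.000323 by edgeR), from 99.7 ± 16.4 to 33.9 ± 9.0 CPM (SD, n = 3 each).

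The log2 ratio of Col14a1 to Col12a1 was −1.56, −1.69 and −0.73 in wt and 2.57, 2.63 and 3.19 in FasL KO, and every FasL KO library was above every wt library. The difference of means was 4.12 (−1.33 ± 0.53 against 2.80 ± 0.34; SD, n = 3 each), a 17.4-fold change. The exact permutation p was 0.1, the smallest this design allows, and 0.15 adjusted over 3 ratios.

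**Figure D4:**
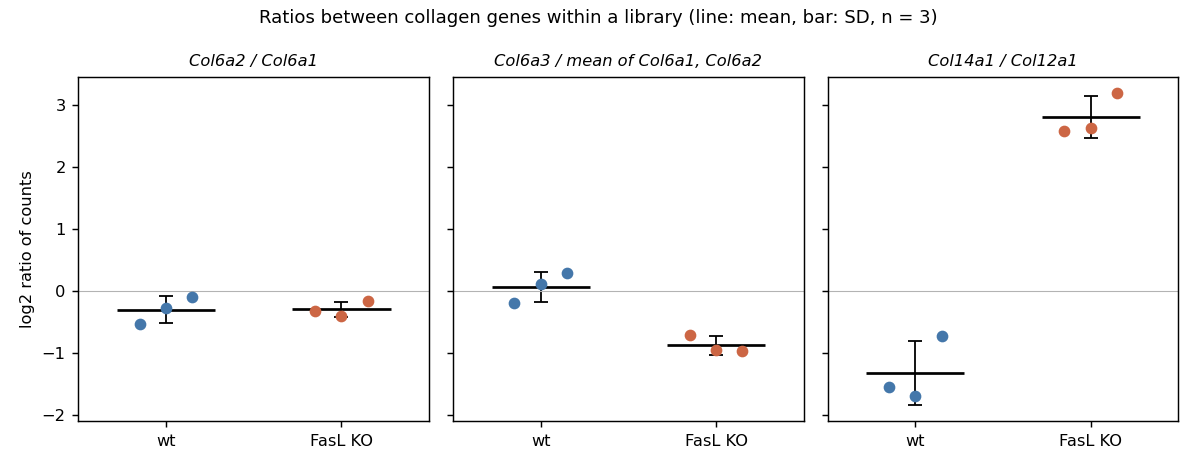
Log2 ratio of counts inside each library for Col6a2 to Col6a1, Col6a3 to the mean of Col6a1 and Col6a2, and Col14a1 to Col12a1, with a pseudocount of 0.5. The Col14a1 to Col12a1 ratio is higher in all FasL KO libraries than in all wt libraries, and the Col6a2 to Col6a1 ratios overlap.

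Col16a1 (ENSMUSG00000040690, chromosome 4, 130047840 to 130099283, plus strand), a FACIT collagen with few counts here, had 11 counts in wt 1 and 0 in wt 2 and wt 3, beside 13, 33 and 0 in the FasL KO libraries. The groups overlapped, and 3 of the 6 libraries were at 0. Its log2 fold change was 1.29 ± 1.62 (SE; adjusted p = 0.698 by edgeR), which is no call in either direction. Col22a1 (ENSMUSG00000079022, chromosome 15, 71795795 to 72034227, minus strand), which in mouse lies at junctions such as that of muscle and tendon, was listed at 0 in all 6 libraries.

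Col18a1 (ENSMUSG00000001435, chromosome 10, 77052178 to 77166548, minus strand) encodes the multiplexin that carries endostatin. In wt it reached 39.5, 41.7 and 55.3 CPM, and in FasL KO 99.3, 65.4 and 151.5 CPM. The groups did not overlap, but FasL KO 2 lay close to the wt libraries and FasL KO 3 was the highest. The log2 fold change was 1.21 ± 0.28 (SE; 2.31-fold; adjusted p = 0.00686 by edgeR), and without FasL KO 3 it was 0.83 with an adjusted p of 0.0557. The coefficient of variation was 41.2% in FasL KO, the widest of the 6 called members, and 18.8% in wt. Slc19a1, which overlaps the 3′ end of Col18a1 on the other strand, was listed at 0 in all 6 libraries.

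Col15a1 (ENSMUSG00000028339, chromosome 4, 47208161 to 47313167, plus strand), the other multiplexin, and Col13a1 (ENSMUSG00000058806, chromosome 10, 61838236 to 61979108, minus strand), a collagen anchored in the cell membrane, were both listed at 0 in every library. The ratio of Col18a1 to Col15a1 could therefore not be computed.

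Of 11 fibrillar collagen genes, 10 were tested, 6 were higher in FasL KO, 0 were lower and 4 did not pass, with a median log2 fold change of 1.55. Col1a1 and Col1a2, the chains of the main bone collagen, changed by 1.83 ± 0.12 and 1.68 ± 0.12 (SE), and Col11a1 by 3.38 ± 0.22. Col11a2 changed by 6.02 ± 0.43, with 14 counts in wt and 1374 in FasL KO. Of 12 network and other collagen genes, 3 were tested and all 3 were higher, Col8a2 by 3.93 ± 0.15, Col8a1 by 3.02 ± 0.10 and Col4a2, of basement membranes, by 0.57 ± 0.11. Of 11 matched relatives in the members' own classes, 3 were tested and 2 were higher: Col9a2, a FACIT collagen of cartilage, went from 3.26 ± 2.59 to 140.2 ± 13.6 CPM (log2 fold change 5.49 ± 0.42, 4.90 without wt 2; adjusted p = 3.4e-07 by edgeR), and Col23a1, a transmembrane collagen, changed by 1.98 ± 0.20. Col25a1 was at −1.24 ± 1.13 and was not called. Against these lists, Col12a1 was the only tested collagen called lower.

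The members' share of the collagen counts was smaller in FasL KO. Collagen genes together held 2.91% ± 0.519 of a wt library's counts and 8.28% ± 0.398 of a FasL KO library's (SD, n = 3 each). The members made up 3.41%, 2.98% and 3.53% of the collagen counts in wt and 2.63%, 2.79% and 2.76% in FasL KO, without overlap. Without Col1a1 and Col1a2, which hold most collagen counts, their share was 10.5%, 9.62% and 10.7% against 9.19%, 10.2% and 9.88%, and the groups overlapped.

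**Figure D5:**
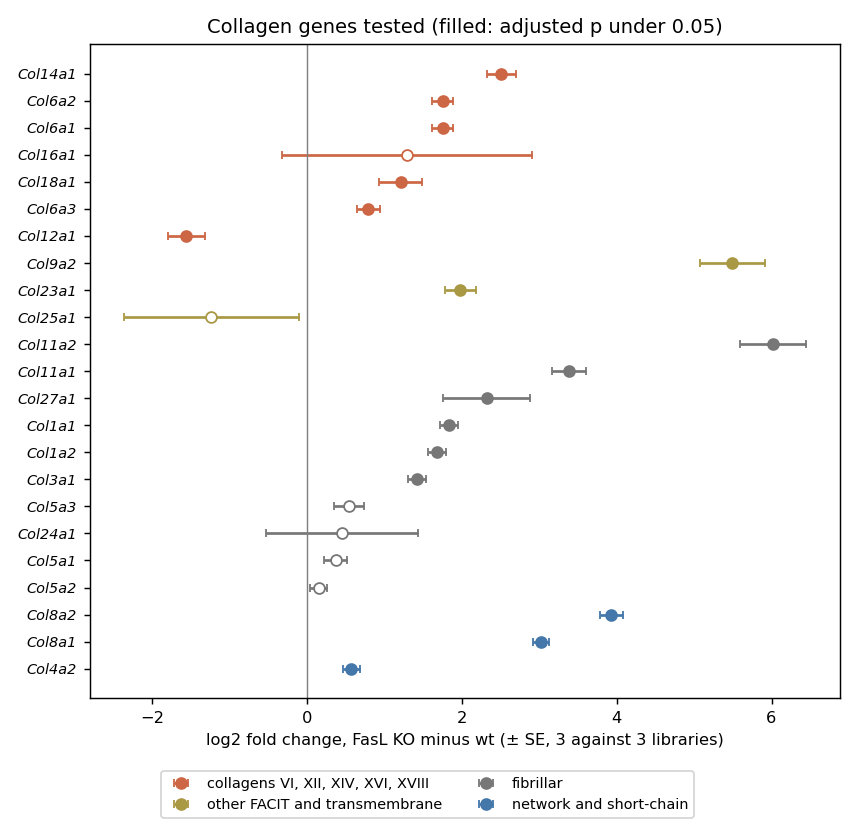
Log2 fold change, FasL KO minus wt, with its standard error for each tested collagen gene, with the members and the other collagens in different colours and called genes filled. Most tested collagens lie above 0, Col12a1 lies at −1.56 and is the only one called lower, and Col14a1 lies at 2.51.

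Molecules that bind collagen VI were mixed. Of 23 partners and receptors, 14 were tested, 3 were higher and 2 were lower, with a median log2 fold change of −0.17. All changes given here are log2 fold changes with their SE. Matn3 and Matn4, matrilins that link collagen VI to other matrix, were higher, Matn3 with 0 counts in wt and at least 72.7-fold higher (adjusted p = 2.38e-05) and Matn4 by 3.44 ± 0.64. Without wt 3 the Matn4 value was 4.81, and the limma-voom fit did not call it (adjusted p = 0.0587). Itga1, a collagen receptor subunit, was higher by 0.87 ± 0.14, and Itgb3, an integrin subunit, fell (−3.13 ± 0.37). Antxr1, a receptor of collagen VI, fell (−1.62 ± 0.48; adjusted p = 0.029), and leaving out wt 1, wt 2 or FasL KO 3 left it with an adjusted p of 0.122, 0.0984 or 0.0818 (this gene was chosen after its values were seen). Antxr2 was at −0.20 ± 0.16 and Bgn, which binds collagen VI, at 0.18 ± 0.14, neither called.

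Among 12 partners of FACIT collagens, 10 were tested, 3 were higher and 1 was lower. Lum and Fmod, small proteoglycans on collagen fibrils, were higher by 2.01 ± 0.11 and 1.33 ± 0.15, and Postn, the matrix protein periostin, by 3.50 ± 0.47. Fbln1, fibulin 1, fell (−0.48 ± 0.13; adjusted p = 0.0205), a call that is lost without wt 2, wt 3 or FasL KO 3 (adjusted p of 0.0627, 0.088 and 0.0579). Among 20 basement membrane partners of multiplexins, 10 were tested, with 2 higher and 1 lower: Lamb2, a laminin chain, by 0.92 ± 0.18, Ncl, nucleolin, by 0.87 ± 0.23, and Fbln1. The Ncl call is lost without wt 1 or FasL KO 1 (adjusted p of 0.0778 and 0.0974).

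Enzymes that can release fragments of these collagens gave 3 higher and 1 lower of 10 tested genes of 20. Ctsk, a collagen-degrading cathepsin, was higher by 1.43 ± 0.13 and Mmp13, a collagenase, by 1.53 ± 0.20, and Adamts14, a procollagen protease, fell (−2.25 ± 0.49). Ctsb was called higher at 0.52 ± 0.14 (adjusted p = 0.0172), and the call is lost without wt 1, wt 2 or FasL KO 3 (adjusted p of 0.0541, 0.051 and 0.127) and with libraries scaled by totals alone (0.36, adjusted p = 0.09). Of 24 genes of collagen folding, modification and secretion, 16 were tested, 6 were higher and 0 lower. P4hb, a subunit of prolyl 4-hydroxylase, was higher by 0.93 ± 0.20, and Plod2, a lysyl hydroxylase, had 1 count in wt and 163 in FasL KO, a pooled ratio of 110 (95% exact counting interval 19.5 to 4370). Pdia3 and Fkbp10, which act in collagen folding, were called higher at 0.69 ± 0.18 and 0.61 ± 0.16, and both calls are lost without wt 1 (adjusted p of 0.0808 and 0.0935) and without FasL KO 3 (0.0938 and 0.108), the Pdia3 call also without wt 3 (0.074) and the Fkbp10 call also with totals alone (0.0651).

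Markers of the cultured cells and of other cell types differed between the groups too. Of 13 osteoblast markers, 6 were tested, 4 were higher and 1 was lower. Cdh11 changed by 1.79 ± 0.13 (SE) and Alpl, the 1 osteoblast marker called lower, by −2.20 ± 0.18. The others called higher had few or no counts in wt. Omd had 0 counts in wt and 457 in FasL KO, Phex 0 and 91, and Ibsp 3 and 97. Bglap had 1 count summed over the 6 libraries, while Dlx5 was at 0. Of 20 macrophage and osteoclast markers, 9 were tested, 8 were higher and 1 was lower, and their summed level was 255.8 to 432.8 CPM in wt and 2307.0 to 6398.0 CPM in FasL KO. Most of the wt sum was Cd14, with 278.2, 307.9 and 236.7 CPM, the 1 marker that fell (−1.56 ± 0.24). In wt, Lyz2 held 3.29, 119.5 and 18.4 CPM, and Marco, Mrc1 and C1qc were at 0. In FasL KO most of the sum was Lyz2, with 1781.9, 2941.2 and 4984.4 CPM. The summed level of the list was 2307.0, 3679.5 and 6398.0 CPM in the FasL KO libraries, where Col18a1 was at 99.3, 65.4 and 151.5 CPM. A link between them was not tested. The defining macrophage and osteoclast markers Adgre1, Csf1r and Acp5 were at 0, and C1qb, a macrophage complement gene, rose from 0.211 ± 0.365 to 141.1 ± 73.2 CPM (SD, n = 3 each). The annotated ends of the markers were not examined. As with the collagen genes, a marker listed at 0 is not shown to be without transcripts, nor its cell type to be absent. Of 10 chondrocyte markers, 5 were tested and 4 were higher, with summed levels of 211.5 to 220.0 CPM in wt and 820.2 to 886.3 CPM in FasL KO. Most of this sum was Sox9, at 206.8, 220.0 and 217.7 CPM in the wt libraries and 752.9, 808.7 and 801.0 CPM in the FasL KO libraries, and Acan, Matn3 and Chad were at 0 in wt. Of 12 smooth muscle and myofibroblast markers, 8 were tested, and 6 were lower. The summed level of this list was 7661.4 to 8089.4 CPM in wt and 3717.2 to 3913.7 CPM in FasL KO. Most of it was Acta2, with a mean of 4992.8 CPM in wt and 2250.8 CPM in FasL KO. Of 12 endothelial markers, 8 were at 0, and the 2 tested, Plvap (2.43 ± 1.25) and Kdr (1.51 ± 1.16), were not called. The summed endothelial level was 1.88 to 5.53 CPM in wt and 4.48 to 15.7 CPM in FasL KO. Summed levels of the other lists were 51.9 to 83.5 CPM in wt and 196.5 to 239.2 CPM in FasL KO for skeletal muscle and tendon junction, 86.0 to 100.7 and 113.3 to 141.0 for Schwann and neural cells, 475.6 to 679.1 and 92.4 to 129.2 for adipocyte markers, nearly all of it Lpl, and 0.948 to 13.2 and 7.91 to 23.8 for epithelium. The counts of tested, higher and lower markers were 3, 2 and 0 for muscle and tendon junction, 5, 2 and 1 for Schwann and neural cells, 1, 0 and 1 for adipocytes, and 2, 1 and 0 for epithelium. The part of these cell types in the collagen results was not tested.

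Genes whose profile over the 6 libraries lay nearest to the mean of the 3 collagen VI chains, measured as the Euclidean distance of centred log2 CPM, were Egr1 (distance 0.17), Col3a1 (0.24), Plxdc2 (0.26), Lifr (0.27) and Fkbp9 (0.29). The chains themselves lay at 0.48 for Col6a1, 0.41 for Col6a2 and 0.82 for Col6a3, and their mean lies between log2 fold changes of 1.75, 1.75 and 0.79. The 5 nearest genes changed by 1.38 to 1.52. Nearness to this mean does not show that they follow any 1 chain. Nearest to Col12a1 were Cemip (0.35; log2 fold change −1.66 ± 0.14), Tgfbr3 (0.39; −1.55 ± 0.16), Ctu1 (0.44; −1.24 ± 0.39), Slc25a23 (0.47; −1.29 ± 0.33) and Pdzrn3 (0.49; −1.58 ± 0.13). The Ctu1 call is lost without any 1 of wt 1, wt 2, wt 3, FasL KO 2 or FasL KO 3 (adjusted p of 0.0794 to 0.117), and the Slc25a23 call without wt 2 (0.054). On chromosome 10, the tested gene before Col6a2 is Lss, 38.6 kb away, at −0.74 ± 0.58 (SE; adjusted p = 0.474 by edgeR). No tested gene lies in the 326 kb between Col6a1 and Col18a1, and Gm7775, inside Col18a1 on the other strand, was at −0.82 ± 0.82 (adjusted p = 0.605).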

How the data were processed

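RNA was measured in 6 libraries made with the QuantSeq 3′ mRNA-Seq FWD kit. Per the series' design text, reads were trimmed with Cutadapt and aligned with STAR, and quality tools, Trim Galore and DESeq2 on mm10 appear in the submitters' processing notes. How reads were assigned to genes, with which strand setting and which annotation, is not given in the sources used here, so overlapping genes are uncertain. The deposited table holds the authors' whole-number counts per Ensembl gene, not normalized. 1 row without an identifier held 0 counts and was left out.

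Counts were fitted over the whole table with edgeR 4.0.16 in R 4.3.3 (filterByExpr, minimum count 10, TMM scaling, no covariate), and each standard error is the absolute log2 fold change over the root of the F statistic. CPM are on the TMM scale. Ratios used counts plus 0.5. Alternatives were DESeq2 1.42.0 and its size factors, limma 3.58.1 (voom), total scaling, no filter, a replicate block and leaving out each library.

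The members and lists were chosen with earlier results of these data known. Named genes are all members, at most 4 called genes of each list in order of adjusted p (2 uncalled ones where none passed), the tested neighbours on chromosome 10 and the 5 nearest profiles. Genes named outside this rule, after their values were seen, are Antxr1, Antxr2, Bgn, Col25a1, Col6a4, Col6a5, Col6a6, Slc19a1, Ibsp, Cd14, Lyz2, Mrc1 and the markers given as at 0 or at 1 count.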

Additional observations from a re-analysis of the deposited data

How the results depend on the processing

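The calls of Col6a1, Col6a2, Col6a3, Col12a1 and Col14a1 kept their direction and stayed past the threshold in all 12 alternatives, with log2 fold changes of 1.60 to 1.85, 1.60 to 1.87, 0.63 to 0.91, −1.74 to −1.38 and 2.36 to 2.73. Col18a1 ranged from 0.83 to 1.44 and lost its call without FasL KO 3 (0.83, adjusted p = 0.0557), so that the members called higher numbered 4 to 5 when libraries were left out, and those called lower 1. Col16a1 ranged from 0.66 to 6.93, the last without wt 1, when all wt libraries were at 0 (adjusted p = 0.159). It was not tested without FasL KO 2. Over all genes, leaving out 1 library gave 684 to 867 higher and 504 to 605 lower. The difference in the log2 ratio of Col6a2 to Col6a1 lay between −0.11 and 0.11 when libraries were left out, at −0.11 without wt 1 and −0.06 without FasL KO 3, against 0.01 with all. The share of the members in collagen counts was 10.3% in wt and 9.76% in FasL KO without Col1a1 and Col1a2.

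The replicate numbers were not used as pairs in the main fit. The correlations of same-numbered deviations were −0.0231, −0.015 and −0.0227, beside −0.00518 to 0.0257 for libraries with different numbers. Values near 0 do not show whether libraries were prepared in pairs. With a replicate block, 760 genes were higher and 599 lower, members 5 and 1, with Col6a3 at 0.81 and Col18a1 at 1.15. The same alternatives were run for other named genes after the data had been seen. Besides the calls named as lost above, Ctu1 lost its call without the low-count filter (0.0716) and with the replicate block (0.0574). Low depth in wt limits what can be said of genes near 0, and the 3 members listed at 0 are not shown to be without transcripts.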
